A study of Mus musculus with 11 samples.

Results

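Lipid droplet and lipolysis genes were followed in periostin-lineage segments of the naive mouse mammary gland. They comprise 10 genes, taken by name from the target column of the deposited count table. They are Plin1, Plin2, Plin4 and Plin5, which encode coat proteins of the droplet, Cidec and Cidea, which encode droplet fusion proteins, Pnpla2, Lipe and Mgll, which encode lipases, and G0s2, which encodes an inhibitor. All 10 genes had 1 probe each among 19965 endogenous probes, and all 10 passed the filter on low counts. The series measured transcripts with the GeoMx digital spatial profiler, which releases barcoded probes by ultraviolet light from chosen areas of a tissue section. Sections came from 3 lineage tracing mice in which cells that express or once expressed periostin, a matrix protein of stromal cells, are marked by the green protein ZsGreen. The ZsGreen-positive area was segmented inside each region, and 6 regions were labelled Pdpn-adjacent, beside lymphatic vessels stained for podoplanin, and 5 SMA-adjacent, beside ducts and blood vessels stained for smooth muscle actin. All glands were naive, fixed in paraformaldehyde and frozen, and the strain, the age and the Cre driver are not given in the sources used here.

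Fat cells store triglyceride in a droplet whose surface carries perilipins. Under resting conditions perilipin 1 holds back ABHD5, the coactivator of adipose triglyceride lipase (encoded by Pnpla2), and G0S2 inhibits the same lipase. When catecholamines raise cyclic AMP, ABHD5 is released and triglyceride is cut in turn by adipose triglyceride lipase, hormone-sensitive lipase (Lipe) and monoglyceride lipase (Mgll). Cidec is characteristic of large white droplets and Cidea, in the mouse, of brown and beige fat. The mouse mammary epithelium grows inside a fat pad, so that stroma, vessels and adipocytes lie side by side.

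Levels are given in 2 ways. A level over background is a probe's count divided by the geometric mean of the 210 negative-control probes of the same region, and CPM are counts scaled to a common library size with TMM factors. The floor of a region was set so that a probe passed it when its log2 count was more than 2 SDs over the mean log2 count of the negative probes. Total counts ran from 22757 to 2271664 in the Pdpn-adjacent and from 760761 to 3086323 in the SMA-adjacent regions. Pdpn-adjacent regions 2, 3 and 11 held fewer than 100000 counts, and 90.0% of the endogenous probes of region 2 and 77.6% of those of region 11 stood at 1, the lowest value of the table. In regions 2 and 11 the floor was 1.50 and 1.98 counts, so that a count of 2 lay above it. The areas were marked by stained proteins and ZsGreen, not by transcripts. Of the genes behind these marks, Postn stood at 0.889 to 4.09 times background in the Pdpn-adjacent group and 1.84 to 5.13 times in the SMA-adjacent group. Pdpn stood at 0.375 to 1.79 and 1.56 to 1.95 times, and Acta2, the smooth muscle actin gene, at 0.952 to 10.0 and 12.9 to 87.5 times. Skeletal muscle markers averaged 91.3 and 41.6 times background in Pdpn-adjacent regions 3 and 7 and 11.6 times in SMA-adjacent region 5. Luminal epithelial markers averaged 3.05 and 3.35 times in Pdpn-adjacent regions 4 and 8 and at most 1.80 times in any other region.

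Several of the 10 genes were among the probes of highest count in the segments. In the 8 regions above 100000 counts, Cidec, Pnpla2 and Plin1 held ranks of 16 to 77, 22 to 141 and 30 to 104 among the 19965 endogenous probes, rank 1 being the highest count. Probes differ in efficiency, so ranks describe counts and not numbers of transcripts. The summed counts of the 10 genes made up 0.185% to 0.403% of endogenous counts in Pdpn-adjacent regions 4, 7 and 8, against 0.207% to 0.419% in the 5 SMA-adjacent regions. In Pdpn-adjacent regions 2, 3 and 11 the sums were 11, 65 and 100 counts (0.0483%, 0.0795% and 0.330%).

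**Figure D1:**
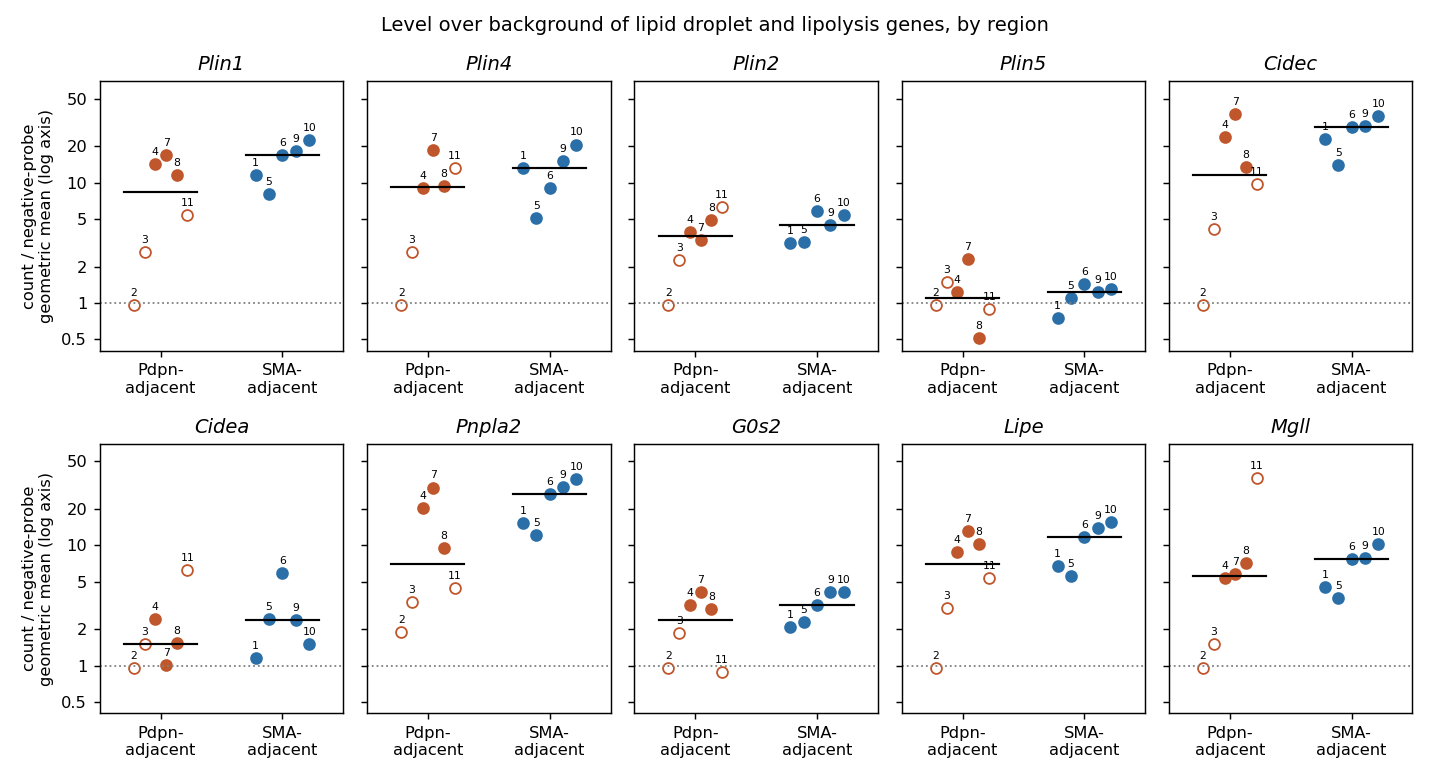
Level over background (count divided by the geometric mean of the negative-control probes, log axis) of each of the 10 genes in the 6 Pdpn-adjacent and 5 SMA-adjacent regions; numbers are region numbers, bars are medians, open circles are regions under 100000 counts and the dotted line is background. Plin5 lay at 0.511 to 2.33 times background in all 11 regions, whereas Cidec reached 37.0 times in Pdpn-adjacent region 7 and 36.1 times in SMA-adjacent region 10.

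Among the coat proteins, Plin1, the perilipin that gates lipolysis in adipocytes, was well above background in every deeply counted region. Its level over background was 0.952, 2.63, 14.4, 16.9, 11.5 and 5.34 in Pdpn-adjacent regions 2, 3, 4, 7, 8 and 11, against 11.7, 8.11, 17.0, 18.2 and 22.4 in SMA-adjacent regions 1, 5, 6, 9 and 10. Regions 2, 3 and 11 lay below every SMA-adjacent region, and regions 4, 7 and 8 lay within the SMA-adjacent range. Plin4, a perilipin of nascent droplets in adipocytes, stood at 0.952, 2.63, 8.97, 18.6, 9.45 and 13.3 times background in the same 6 Pdpn-adjacent regions, against 13.3, 5.11, 8.99, 15.0 and 20.7 times in the 5 SMA-adjacent ones. Its groups overlapped, and only regions 2 and 3 lay below the SMA-adjacent range.

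Plin2, the perilipin found on droplets of most cell types, was lower over background, at 0.952 to 6.23 times with a median of 3.61 in Pdpn-adjacent regions, against 3.14, 3.21, 5.77, 4.48 and 5.40 times in SMA-adjacent regions 1, 5, 6, 9 and 10. Plin5, the perilipin of oxidative tissues that ties droplets to mitochondria, was at background. Its levels were 0.511 to 2.33 in the Pdpn-adjacent group and 0.752 to 1.43 in the SMA-adjacent group, and it was above the floor in 0 of 11. Plin3, a further perilipin expressed widely, had a mean level of 1.15 ± 0.46 (SD, n = 6) in the Pdpn-adjacent group and of 1.12 ± 0.28 (SD, n = 5) in the SMA-adjacent group and was above the floor in 1 of 11. That was Pdpn-adjacent region 2, where Plin3 had 2 counts and the floor was 1.50 counts. A level near 1 is the level of probes with no target, so neither Plin3 nor Plin5 was clearly detectable at this depth.

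Promoters are shown for a perilipin with a high level, the lipase Pnpla2 and the perilipin at background, to set their sequences side by side. They hold the 250 bases before an annotated start, 5′ to 3′ on the gene's strand, from RefSeq on GRCm38.p6. For Plin5 this is the more upstream of 2 starts with a window. The annotated genes of Plin1 and Plin5 extend into these windows, to chr7:79732904 and chr17:56117606. Capitals mark the nuclear receptor half-site AGGTCA, the TATA box TATAA and the GC box GGGCGG, each searched on both strands.
Plin1 (chr7:79732777-79733026, minus strand): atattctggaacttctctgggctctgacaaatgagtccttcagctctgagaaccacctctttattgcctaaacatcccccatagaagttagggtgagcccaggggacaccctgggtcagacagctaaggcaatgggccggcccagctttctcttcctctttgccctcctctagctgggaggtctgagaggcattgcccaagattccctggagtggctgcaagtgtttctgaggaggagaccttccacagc
Pnpla2 (chr7:141454938-141455187, plus strand): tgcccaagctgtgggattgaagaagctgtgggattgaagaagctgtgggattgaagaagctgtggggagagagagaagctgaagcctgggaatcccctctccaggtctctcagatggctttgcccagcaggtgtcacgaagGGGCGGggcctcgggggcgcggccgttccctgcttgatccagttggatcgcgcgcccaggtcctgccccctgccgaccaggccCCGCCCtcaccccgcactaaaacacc
Plin5 (chr17:56117549-56117798, minus strand): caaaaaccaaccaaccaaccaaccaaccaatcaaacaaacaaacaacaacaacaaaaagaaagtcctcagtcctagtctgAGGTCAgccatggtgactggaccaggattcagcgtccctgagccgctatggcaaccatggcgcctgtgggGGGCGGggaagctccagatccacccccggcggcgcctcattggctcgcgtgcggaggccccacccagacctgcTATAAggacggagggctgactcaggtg

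The Plin1 window holds none of these letters. The Pnpla2 window holds the GC box 109 and 26 bases before the start, at 26 bases on the other strand. The Plin5 window holds the half-site 170 bases, the GC box 100 bases and the TATA box 27 bases before the start. Over the 13 windows of the 9 genes with an entry, the half-site occurred in 2 (Plin2 and Plin5), the E-box CACGTG in 2 (Lipe and Mgll), TATAA in 2 (Plin4 and Plin5) and GGGCGG in 6. Among all 32851 promoter windows of this length the half-site occurred in 14.0%, CACGTG in 6.02%, TATAA in 22.8% and GGGCGG in 32.7%. The direct repeat of the half-site with 1 base between, DR1, the element that PPAR gamma binds with its partner RXR, occurred in 0.0335% of all windows and in 0 of the 13. The letters are a description of these windows only.

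Cidec, which encodes the fusion protein of the large single droplet of white fat, was among the genes with the highest counts. It stood at 0.952, 4.13, 23.8, 37.0, 13.4 and 9.78 times background in Pdpn-adjacent regions 2, 3, 4, 7, 8 and 11, against 23.0, 13.9, 28.8, 29.3 and 36.1 times in SMA-adjacent regions 1, 5, 6, 9 and 10. Pdpn-adjacent region 7 was the highest of all 11, and Pdpn-adjacent regions 2, 3, 8 and 11 lay below every SMA-adjacent one. The Cidec probe lies on GRCm38.p6 at chr6:113428152-113428189, within the gene. Cidea, its relative in brown fat, was close to background in most regions, at 0.952, 1.50, 2.42, 1.02, 1.53 and 6.23 times in the 6 Pdpn-adjacent regions, against 1.15, 2.42, 5.90, 2.41 and 1.52 times in the 5 SMA-adjacent ones. It was above the floor in Pdpn-adjacent regions 4 and 11 and in SMA-adjacent regions 5, 6 and 9. The value of region 11 rested on 7 counts.

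Pnpla2, whose product takes the first fatty acid from triglyceride, opens the lipolytic sequence. Its level over background was 1.90, 3.38, 20.5, 30.3, 9.58 and 4.45 in Pdpn-adjacent regions 2, 3, 4, 7, 8 and 11, against 15.3, 12.2, 26.7, 30.4 and 35.7 in SMA-adjacent regions 1, 5, 6, 9 and 10. Pdpn-adjacent regions 2, 3, 8 and 11 lay below every SMA-adjacent region and regions 4 and 7 lay among them. The probe lies at chr7:141457431-141457476 on GRCm38.p6, within the gene. G0s2, which encodes the inhibitor of that lipase, ranged from 0.889 to 4.08 times background in Pdpn-adjacent regions (median 2.41), against 2.08, 2.29, 3.19, 4.08 and 4.08 times in SMA-adjacent regions 1, 5, 6, 9 and 10. Abhd5, which encodes the coactivator, had a mean level of 2.51 ± 1.09 (SD, n = 6) in the Pdpn-adjacent group and of 3.24 ± 0.36 (SD, n = 5) in the SMA-adjacent group.

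Lipe, the hormone-sensitive lipase gene, stood at 0.952, 3.00, 8.75, 13.1, 10.3 and 5.34 times background in Pdpn-adjacent regions 2, 3, 4, 7, 8 and 11, against 6.76, 5.58, 11.7, 13.8 and 15.8 times in SMA-adjacent regions 1, 5, 6, 9 and 10. The 3 deeply counted Pdpn-adjacent regions lay inside the SMA-adjacent range. Mgll, whose product takes off the last fatty acid and also breaks down the endocannabinoid 2-arachidonoylglycerol, stood at 0.952, 1.50, 5.40, 5.82, 7.16 and 36.5 times in the Pdpn-adjacent regions, against 4.51, 3.62, 7.73, 7.90 and 10.3 times in the SMA-adjacent ones. The 36.5 came from region 11, where Mgll had 41 counts of a total of 30316 and the other 9 genes had 1 to 15 counts each. Region 11 was the only region in which Mgll exceeded the highest SMA-adjacent level. The Mgll probe lies at chr6:88764654-88764691 on GRCm38.p6, within the gene.

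Between the groups, 0 of the 10 genes passed the test. With edgeR's quasi-likelihood test over 19935 probes, 2 probes (0.0100%) were higher and 0 (0%) lower in Pdpn-adjacent regions at an adjusted p of 0.05, while 2.84% of the probes were higher and 3.19% lower at an unadjusted p under 0.05, and 0 of the 10 genes were. DESeq2 called 0 of the 10, with 1 probe (0.00502%) higher and 16 (0.0803%) lower among all, and limma-voom called 0 of the 10 and 0 (0%) of all. An exact two-sided permutation test on log2 CPM, whose smallest possible p is 0.00216, called 0 probes (0%) after adjustment over all of them. With that smallest p, a call over 19935 probes needs very many probes at it, so its 0 was nearly fixed beforehand and says little. Pnpla2 averaged 375 ± 363 CPM (SD, n = 6) in Pdpn-adjacent and 735 ± 280.2 CPM (SD, n = 5) in SMA-adjacent regions, a difference of -0.84 ± 0.64 SE on the log2 scale (edgeR adjusted p = 0.956). Plin1 averaged 274 ± 204 and 473 ± 155 CPM, with -0.63 ± 0.52 SE (edgeR adjusted p = 0.979). Cidec averaged 478 ± 431 and 800.4 ± 224 CPM, with -0.65 ± 0.67 SE (edgeR adjusted p = 1.00). Mgll averaged 340.2 ± 526 and 208 ± 76.0 CPM, with 0.39 ± 0.54 SE (edgeR adjusted p = 1.00). The other 6 genes had log2 fold changes of -0.43 (Cidea) to 0.10 (Plin5), with adjusted p-values of 0.985 to 1.00. All these p-values treat regions as independent. The labels tie no region to a mouse, and with more regions per group than mice some share one, which can make them too small.

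The log2 fold change was negative for 8 of the 10 genes, where 48.8% of all probes tested were negative, and the median was -0.37 against 0.0057 over all probes tested. No gene of the 10 had all Pdpn-adjacent regions below all SMA-adjacent ones in CPM (0.391% of all probes did) or all above (0.446%), and none had at least 5 of 6 below (2.82%). Cidec and Pnpla2 had 4 of 6 below. Without Pdpn-adjacent regions 2, 3 and 11, the log2 fold changes were -0.22 for Pnpla2, -0.11 for Plin1, -0.056 for Cidec and -0.021 for Lipe, and the median of the 10 was -0.084. Other settings gave larger differences: without Pdpn-adjacent region 7, Pnpla2 was at -1.33 (edgeR unadjusted p = 0.0485, adjusted p = 0.797) and Cidec at -1.12, and limma-voom gave -1.65 and -1.75. Mgll was at -0.46 without region 11, and -0.19 without regions 2, 3 and 11. Cidea was at 0.084 without SMA-adjacent region 6. In these segments, fewer cells of a type and less RNA per cell cannot be told apart, and the number of cells per segment was not used here.

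**Figure D2:**
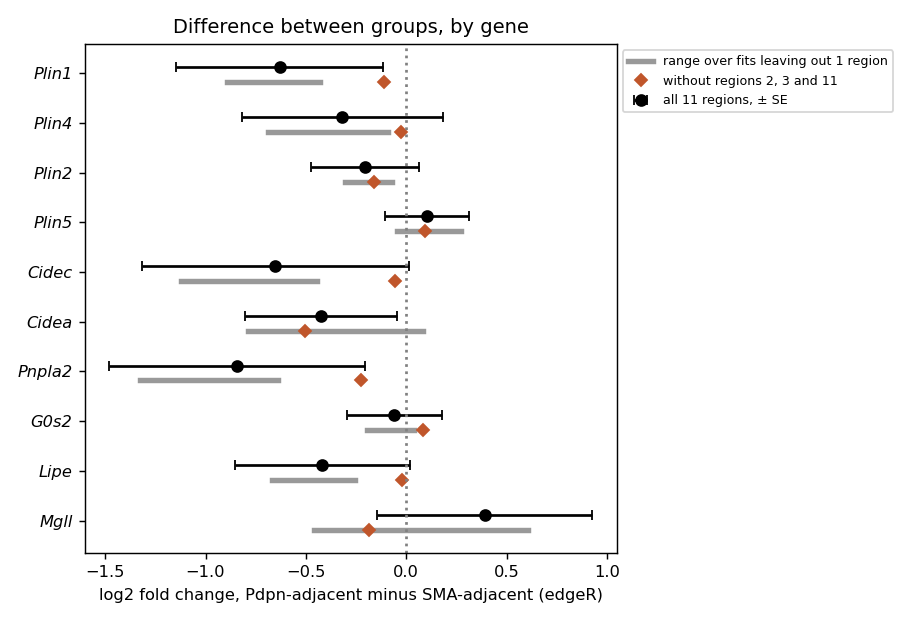
Log2 fold change, Pdpn-adjacent minus SMA-adjacent, of the 10 genes with edgeR. Black points and bars are the estimate and its SE over all 11 regions, grey bars the range when 1 region at a time was left out, and diamonds the estimate without regions 2, 3 and 11. Without those 3 regions Plin1, Plin4, Cidec and Lipe lay between -0.11 and -0.021, and the sign of Mgll turned.

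Ratios between the genes inside a region do not depend on its scaling, but counts of 1 and background counts draw them toward 1 where counts are few, so they are given for the 8 regions above 100000 counts unless named. The Lipe to Pnpla2 ratio lay between 0.427 and 0.456 in 7 of these 8 regions. It was 0.427, 0.433 and 1.08 in Pdpn-adjacent regions 4, 7 and 8, against 0.441, 0.456, 0.437, 0.454 and 0.441 in SMA-adjacent regions 1, 5, 6, 9 and 10. In region 8 the ratio had an exact 95% interval of 0.779 to 1.50 from 81 and 75 counts, which does not overlap the interval of 0.401 to 0.485 of region 10 or any other of the 8 regions. Intervals cover counting error only. The ratio of Mgll to Lipe counts was 0.617, 0.444 and 0.691 in Pdpn-adjacent regions 4, 7 and 8, against 0.667, 0.648, 0.663, 0.571 and 0.652 in the SMA-adjacent regions. In Pdpn-adjacent region 11 it was 6.83, with an interval of 2.88 to 19.7 from 41 and 6 counts.

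As a share of the summed counts of the 10 genes, Plin1 made up 15.5%, 12.7% and 16.1% in Pdpn-adjacent regions 4, 7 and 8, against 14.1% to 14.6% in all 5 SMA-adjacent regions. Cidec made up 25.7%, 27.9% and 18.8%, against 23.1% to 28.2%, and Pnpla2 22.1%, 22.9% and 13.4%, against 18.8% to 24.0%. Region 8 thus had the smallest shares of Cidec and Pnpla2 among the 8 regions above 100000 counts. Its exact 95% intervals were 15.7% to 22.3% for Cidec and 10.7% to 16.6% for Pnpla2. The ratio of Pnpla2 to its inhibitor gene G0s2 was lowest there, at 3.26 (2.02 to 5.45), against 6.41 and 7.43 in Pdpn-adjacent regions 4 and 7 and 5.34 to 8.74 in the SMA-adjacent regions. Its interval overlapped those of regions 1, 5 and 7, which began at 5.43, 4.67 and 4.99. G0s2 had 23 counts in region 8, where the floor was 22.6 counts. This ratio, the Pnpla2 share and the Lipe to Pnpla2 ratio use the same 75 Pnpla2 counts and are not separate observations. Region 8 was one of the 2 regions with luminal epithelial markers above 3 times background. The other, region 4, had Cidec and Pnpla2 at 25.7% and 22.1%. Region 8 also had the highest fibroblast marker level of the Pdpn-adjacent group, at 8.15 times. What part any cell type had in these shares was not tested. Background counts are part of every share and weigh most on Plin5, Cidea and G0s2.

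**Figure D3:**
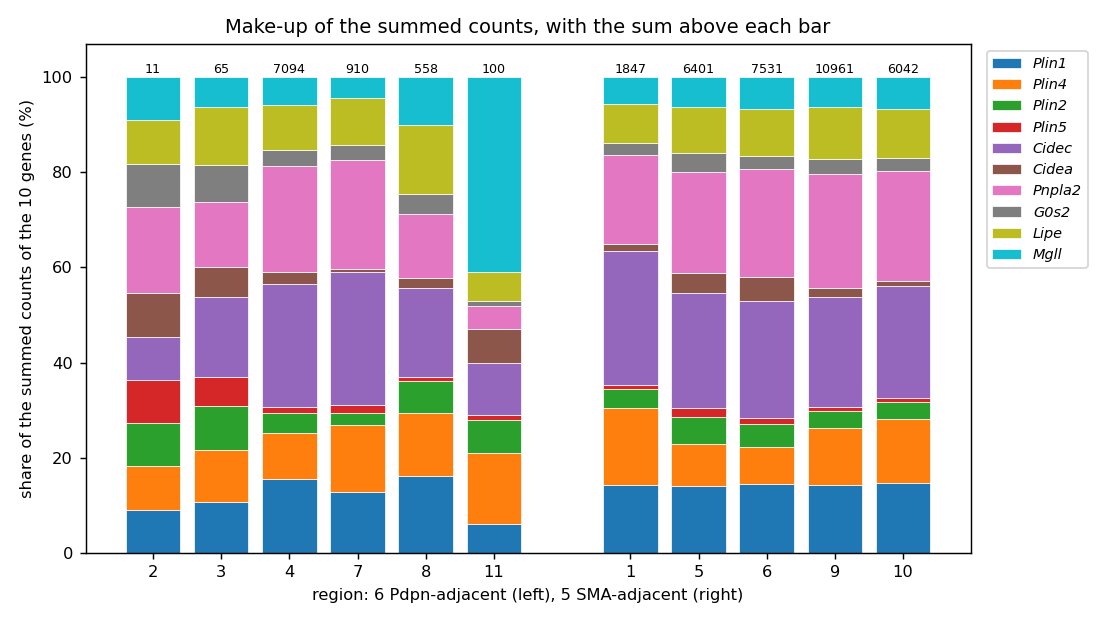
Share of the summed counts of the 10 genes that each gene holds (%), by region, with the summed count above each bar; the 6 Pdpn-adjacent regions stand left and the 5 SMA-adjacent regions right. Plin1 holds 14.1% to 14.6% in all SMA-adjacent regions, and Mgll holds 41.0% in Pdpn-adjacent region 11, whose sum is 100 counts.

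Plin4 and Plin1, both perilipins of adipocytes, did not keep one ratio. Plin4 counts were 0.624, 1.10 and 0.822 times Plin1 counts in Pdpn-adjacent regions 4, 7 and 8, against 1.14, 0.630, 0.529, 0.824 and 0.925 times in SMA-adjacent regions 1, 5, 6, 9 and 10. The lowest 3 were regions 6, 4 and 5, from both groups, and their exact 95% intervals ended at 0.586, 0.687 and 0.701, below the 0.765 at which that of region 9 began. Plin2 counts were 0.269, 0.198 and 0.422 times those of Plin1 in Pdpn-adjacent regions 4, 7 and 8, against 0.269, 0.396, 0.340, 0.246 and 0.241 times in the SMA-adjacent regions. For Plin2, region 7 lay below and region 8 above the SMA-adjacent range.

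Among the SMA-adjacent regions, Cidea varied more than the other 9 genes. Its CPM there spanned 5.49-fold from the lowest to the highest region, against 1.96-fold to 3.46-fold for the other 9 genes. Cidea counts were 0.102, 0.0276 and 0.114 times those of Cidec in Pdpn-adjacent regions 4, 7 and 8, against 0.050, 0.174, 0.205, 0.0821 and 0.0422 times in SMA-adjacent regions 1, 5, 6, 9 and 10. Region 6 was highest, with an exact 95% interval of 0.183 to 0.229, and region 7 lowest, with 0.0110 to 0.0576. Cidea was not above the floor in regions 1, 7, 8 and 10, at 1.15, 1.02, 1.53 and 1.52 times background. There the ratio sets mostly background counts against Cidec, and the low value of region 7 goes with its high Cidec level. The lowest Cidea CPM of the SMA-adjacent group, in region 1, was likewise near background.

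Ucp1, the uncoupling protein of brown and beige fat, stood at 109, 55.9 and 53.1 CPM in Pdpn-adjacent regions 4, 7 and 8, against 40.8, 116, 160.2, 106 and 48.0 CPM in SMA-adjacent regions 1, 5, 6, 9 and 10. Cox8b, a cytochrome oxidase subunit of brown fat and muscle, stood at 154, 112 and 36.5 CPM, against 31.6, 139, 312, 131 and 64.3 CPM. For Cidea the values were 80.0, 32.6 and 39.8 CPM, against 34.3, 82.6, 188, 71.8 and 44.3 CPM. Among these 8 regions all 3 genes were highest in SMA-adjacent region 6, and each was higher in regions 4, 5, 6 and 9 than in regions 1, 7, 8 and 10. Adipoq, which encodes the adipocyte hormone adiponectin, did not follow that split, at 778, 1024 and 412 CPM, against 705, 464, 726, 843 and 958 CPM. Of the 9 brown and beige adipocyte markers, 0 passed the test between the groups with edgeR, and 1 (Prdm16, near background) was lower at an unadjusted p under 0.05. Of the list, 4 log2 fold changes were negative and 5 positive, with a median of 0.063. In SMA-adjacent region 6, 3 of the 9 markers were above the floor, and the list averaged 2.94 times background. The split of regions was read from the values of Cidea, Ucp1 and Cox8b themselves, and most of the list stood near background. Cox7a1, a further marker of the list, was above the floor in 2 Pdpn-adjacent and 2 SMA-adjacent regions and was not compared by region. Zic1, a transcription factor of brown fat that stood near background here, had 0.26 ± 0.17 SE, whereas Ucp1 had -0.37 ± 0.32 SE and Cox8b -0.45 ± 0.43 SE.

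**Figure D4:**
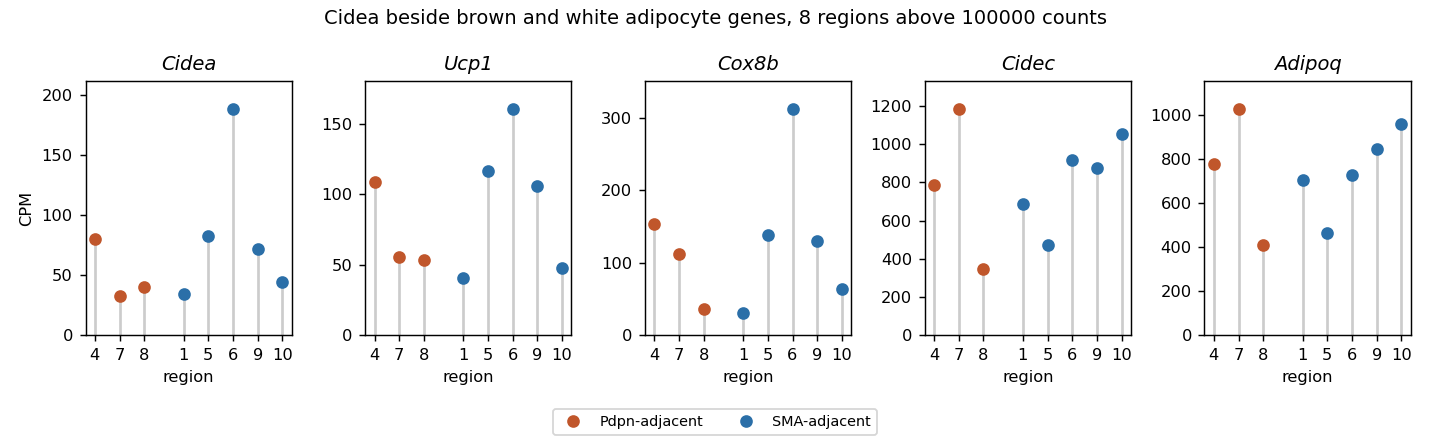
CPM of Cidea, of the brown fat gene Ucp1, of Cox8b, a gene of brown fat and muscle, and of the white fat genes Cidec and Adipoq in the 8 regions above 100000 counts, 3 Pdpn-adjacent (left) and 5 SMA-adjacent (right), each axis starting at 0. Cidea, Ucp1 and Cox8b peak in SMA-adjacent region 6 at 188, 160.2 and 312 CPM, whereas Cidec and Adipoq peak in Pdpn-adjacent region 7 at 1182 and 1024 CPM.

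White adipocyte markers were high in the same regions as the 10 genes. Their mean level over 11 markers was 1.47, 6.65, 34.8, 59.9, 32.6 and 14.7 times background in Pdpn-adjacent regions 2, 3, 4, 7, 8 and 11, against 32.6, 20.9, 39.9, 56.5 and 64.2 times in SMA-adjacent regions 1, 5, 6, 9 and 10. The mean level of the 10 lipid droplet and lipolysis genes was 1.05, 2.44, 9.25, 13.2, 7.13 and 8.89 times in the Pdpn-adjacent regions, against 8.17, 5.76, 11.7, 12.7 and 15.3 times in the SMA-adjacent ones. Both were highest in regions 10, 7 and 9 and lowest in regions 2 and 3. Fibroblast markers averaged 0.952 to 8.15 times in the Pdpn-adjacent group and 4.77 to 13.5 times in the SMA-adjacent group. Smooth muscle markers averaged 1.22 to 4.87 and 5.03 to 27.8 times. What part the adipocyte content of a segment had in the levels of the 10 genes was not tested.

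**Figure D5:**
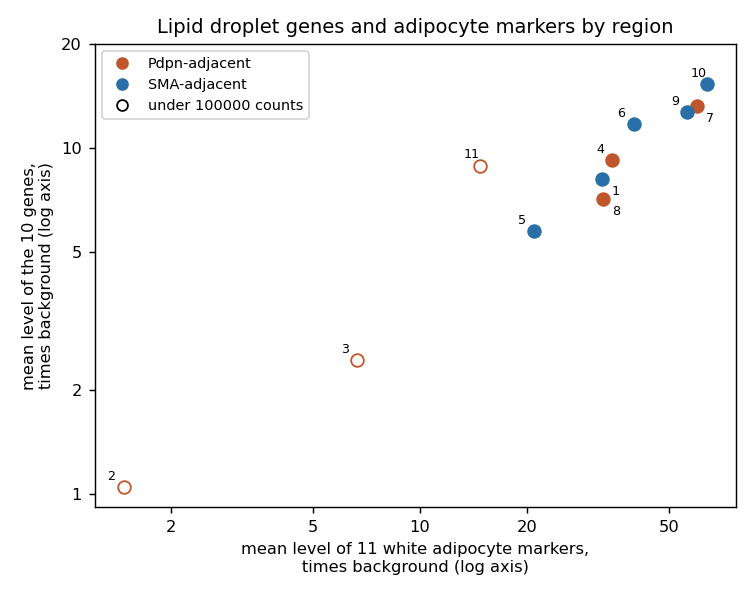
Mean level over background of the 10 lipid droplet and lipolysis genes against that of 11 white adipocyte markers, 1 point per region, both axes logarithmic; open circles are regions under 100000 counts. Regions 10, 7 and 9, from both groups, lie at the top right. Region 11, with 41 Mgll counts, lies at 8.89 for the 10 genes and 14.7 for the markers, whereas region 5 lies at 5.76 and 20.9.

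None of the 11 white adipocyte markers passed the test between the groups. Adipoq averaged 450.2 ± 377 CPM (SD, n = 6) in Pdpn-adjacent and 739 ± 184 CPM (SD, n = 5) in SMA-adjacent regions, and its log2 fold change was -0.61 ± 0.63 SE. Of the list, 9 had negative fold changes (median -0.48), and Acvr1c, an activin receptor of adipocytes, was lower at an unadjusted p under 0.05, at -0.48 ± 0.20 SE with an edgeR adjusted p of 0.760. Cd36, a fatty acid transporter, averaged 348 ± 217 and 572 ± 149 CPM. Lep, the leptin gene, averaged 49.2 ± 17.4 and 48.8 ± 8.46 CPM, near background at mean levels of 1.55 and 1.59. The dependence between regions of 1 mouse, which the labels do not resolve, can make these p-values too small.

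The rest of the pathway was read from 25 further genes of droplet formation, hormone input and lipolysis, of which Fabp4 is also a white adipocyte marker. With edgeR 0 of the 25 passed in either direction and 0 had an unadjusted p under 0.05. Their fold changes were negative for 16 and positive for 9, with a median of -0.051. The smallest p belonged to Plin3, at a level near background (-0.38 ± 0.19 SE, edgeR adjusted p = 0.853). Adrb1, a beta adrenergic receptor, stood near background at mean levels of 1.42 and 1.47, and had 0.25 ± 0.15 SE. Prkar2b, the regulatory subunit of protein kinase A in fat, averaged 115 ± 119.9 CPM (SD, n = 6) in Pdpn-adjacent and 241 ± 69.6 CPM (SD, n = 5) in SMA-adjacent regions. Pde3b, the phosphodiesterase through which insulin restrains lipolysis, had a mean level over background of 1.71 ± 0.77 in the Pdpn-adjacent group and 2.79 ± 0.67 in the SMA-adjacent group. The same dependence between regions of 1 mouse applies to these tests and can make p too small.

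Across the 8 regions above 100000 counts, the 45 pairs of the 10 genes had Pearson correlations of log2 level over background from -0.52 (Plin4 and Cidea) to 0.96 (Cidec and Pnpla2), with a median of 0.62. Within a region all genes share 1 divisor, its negative-probe mean, and with 8 points the values are a description. No median was computed over pairs of other probes, so the 0.62 has no reference. Lipe went with G0s2 at 0.93, with Plin1 at 0.92 and with Mgll at 0.92. Cidea had no partner above 0.53. Of all other probes, those most like Plin1 were Taldo1, Cebpa and Chp1 (0.97 each), and those most like Cidec were Atp5c1, Ifi27l2a and Adhfe1 (0.98 to 1.00). Pnpla2 was most like Gda, Cat and Auh (0.97 to 0.98), G0s2 like Ndufc1, Sdhc and Rbp4 (0.98 to 0.99), Lipe like Atp6v1e1, Fastk and Prxl2a (0.99 each) and Mgll like Phb, Ctsb and Hibch (0.97 to 0.98). Plin4 was most like Atxn10, Cdc42 and Eif4a2 (0.98 to 0.99) and Plin2 like Tesk1, Pcdhac2 and Zbtb12 (0.96 to 0.97). Each is the highest of all other probes, so that high values arise in part from the choice. These probes were not required to be above the floor. The best partner from among the 10 genes ranked between 15 (for Cidec) and 765 (for Plin4) among all probes.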

How the data were processed

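The deposited table holds whole-number counts per probe with no normalization, judged from the values, with 1 column per region and a lowest value of 1. The authors' steps from reads to counts, and whether 1 was added to each count, are not given in the sources used here. The build of the probe coordinates is GRCm38.p6, per the file headers. Of 12 areas collected, per the labels' protocols, 11 had labels and were analysed.

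Negative-control probes (210) set the background and entered neither library sizes nor tests. Probes kept by filterByExpr (19935) were fitted with edgeR 4.0.16 in R 4.3.3 (TMM, quasi-likelihood test, two-sided, Benjamini-Hochberg over all probes, group as the only term). Log2 fold changes are Pdpn-adjacent minus SMA-adjacent, with the standard error implied by p. Alternatives left out each region, regions 2, 3 and 11, 3 and 7, or 4 and 8, changed the filter or scaling, took 1 off each count, or used DESeq2 1.42.0, limma-voom (limma 3.58.1) or an exact permutation test over all 462 splits. The tests were tested on simulated data. Intervals of count shares and ratios are exact binomial (Clopper-Pearson, 95%). The members and lists were chosen with earlier results of these data known. Named genes are all members, the 4 smallest p-values of the pathway and the adipocyte lists, Adipoq, Ucp1 and Abhd5, and, for each member above the floor in at least 6 regions, its 3 most correlated probes. Cox8b was named under that rule, and Postn, Pdpn and Acta2 for the marking of the areas. The DNA sequences under the probes were not used here.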

Additional observations from a re-analysis of the deposited data

Results flagged for a closer look

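In Pdpn-adjacent region 11 the Mgll level was 1404 CPM, far from the next region of its group at 186 CPM and the lowest at 37.5 CPM. It rests on 41 counts in a library of 30316, where 1 count is worth 34.2 CPM. In the same region Cidea stood at 239.7 CPM, against 80.0 CPM in the next Pdpn-adjacent region and 32.6 CPM in the lowest, and rests on 7 counts. The gap to the nearest region, divided by the whole range, was 0.891 for Mgll and 0.771 for Cidea, above Dixon's 95% limit of 0.625 for 6 values. Of 20 checks (10 genes in 2 groups) 2 were flagged, both in region 11. Chance alone flags about 1 in 20 for independent normal values of equal variance. CPM from libraries this unequal in depth do not meet that, so the rate is only a rough guide.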

How the results depend on the processing

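The count of the 10 genes called stayed at 0 higher and 0 lower under all 22 alternatives. For the permutation test this was nearly fixed beforehand by its smallest possible p. With DESeq2, 1 of the 10 had no adjusted p. Over all probes, 2 were called higher and 0 lower. Leaving out 1 region gave 1 to 12 higher and 0 to 41 lower, the most without SMA-adjacent region 5 (12 and 41), and 12 and 1 without Pdpn-adjacent region 7. Higher calls were 1 without regions 2, 3 and 11, 14 without regions 3 and 7, 13 without regions 4 and 8, 1 with upper-quartile scaling, 1 with library sizes from the negative probes and 0 with limma-voom and the permutation test. DESeq2 called 1 higher and 16 lower, and taking 1 off every count gave 25 higher and 32 lower; the cause was not tested. limma-voom moved the median log2 fold change of all probes to 0.14, and that of the 10 genes was -0.40 there. Plin1, Plin4, Plin2, Cidec, Pnpla2 and Lipe stayed negative under all 22 alternatives. With 1 region left out, Plin5 (0.10 with all regions) ran from -0.046 (without Pdpn-adjacent region 7) to 0.27, Cidea (-0.43) from -0.79 to 0.084 (without SMA-adjacent region 6), G0s2 (-0.060) from -0.19 to 0.040 (without SMA-adjacent region 9) and Mgll (0.39) from -0.46 (without Pdpn-adjacent region 11) to 0.61. G0s2 was also positive without Pdpn-adjacent region 8 (0.014) or SMA-adjacent region 10 (0.019). Plin5 was at -0.071 without regions 3 and 7 and at 0.72 without regions 4 and 8 (edgeR unadjusted p = 0.0339, adjusted p = 0.873). G0s2 was at 0.081 without regions 2, 3 and 11 and 0.055 with limma-voom. Mgll was at -0.19 without regions 2, 3 and 11, -0.35 with limma-voom and -0.29 in the permutation test. No paired analysis was possible because region numbers are unique and the labels tie no region to a mouse. Regions 2, 3 and 11 hold 11, 65 and 100 counts of the 10 genes, which limits what they can show.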
